A study of Mus musculus with 6 samples.

Results

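The genes described here are regulators of apoptosis and the caspases, measured in RAW 264.7 cells, a mouse macrophage-like line, by hybridizing their RNA to single-channel chemiluminescent arrays of the mouse genome. In the 15-HETE + LPS group, cells received 40 μM 15(S)-HETE, a hydroxylated product of arachidonic acid, and directly afterwards 1 μg/mL LPS, a bacterial endotoxin. The LPS group received the same LPS alone, so both groups were stimulated, and cells without LPS were not analysed here. Each group had 3 biological replicates harvested at 24 h, and each replicate pooled 6 wells of this single cell line. The list held 38 genes, and 29 of them had a probe to which the platform annotation gives that gene symbol alone, out of 13840 genes with such a probe. A gene with several probes was read at the probe with the highest mean log2 intensity. Bcl2l2, Bax, Bak1, Casp9, Tnfrsf10b, Tradd, Tnfrsf1b, Ripk1 and Dffa were not analysed here.

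Apoptosis is run by caspases, proteases that are made as inactive precursors. In the mitochondrial route, BH3-only proteins sense stress and relieve the restraint that BCL-2, BCL-XL and MCL-1 place on the pore formers BAX and BAK, whereupon cytochrome c leaves the mitochondria and joins APAF1 to activate caspase-9. In the death receptor route, FAS or the TNF receptor recruits FADD and caspase-8, and FLIP and the IAP proteins hold caspases in check. In macrophages, LPS induces several survival genes of this kind through NF-κB.

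Among the 29 genes, the transcript of the initiator caspase Casp2 rose after 15-HETE, with a fitted fold of 5.98 over dim LPS signals whose background level is not known. The BH3-only gene Bcl2l11, which encodes BIM, had a 2.27-fold higher geometric mean and Bclaf1, a BCL2-associated transcription factor, a 1.88-fold lower one, and neither passed the test across the array. The mitochondrial guardians Bcl2, Bcl2l1 and Mcl1, the BH3-only genes Bbc3, Bid, Pmaip1 and Bmf, and Apaf1, Fas, Casp8 and Ripk3 all had log2 fold changes between -0.35 and 0.22. The log2 fold change, called log2 ratio below, sets 15-HETE + LPS over LPS. It was tested two-sided by limma, p-values were adjusted by Benjamini-Hochberg over 33012 probes, and a call is an adjusted p under 0.05. By this rule 1 of 29 genes was higher, where 0.509% of all probes and 0.759% of genes at their brightest probe were, and 0 were lower, where 0.442% and 0.368% were. Before adjustment 6 genes were higher and 2 lower at p under 0.05, against 8.62% and 11.0% of all probes, and 10.7% and 10.6% of genes at their brightest probe. For 13 of the 29 genes, 44.8%, no sample of one group fell within the range of the other, against 30.0% of all probes and 35.3% of genes at their brightest probe. Of these, 8 were higher after 15-HETE (13.7% of all probes, 17.5% of genes) and 5 lower (16.3% and 17.7%). When the prior variance was allowed to depend on intensity, here named the intensity trend, 3 genes were higher and 2 lower, against 3.87% and 4.96% of all probes, and 5.85% and 5.33% of genes. The 3 were Casp2, Bcl2l11 and Casp6, and the 2 were Bclaf1 and Birc3. In that fit without LPS replicate 1, a sample described below, 10 were higher and 3 lower, against 7.86% and 7.69% of all probes, and 12.6% and 9.17% of genes.

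**Figure D1:**
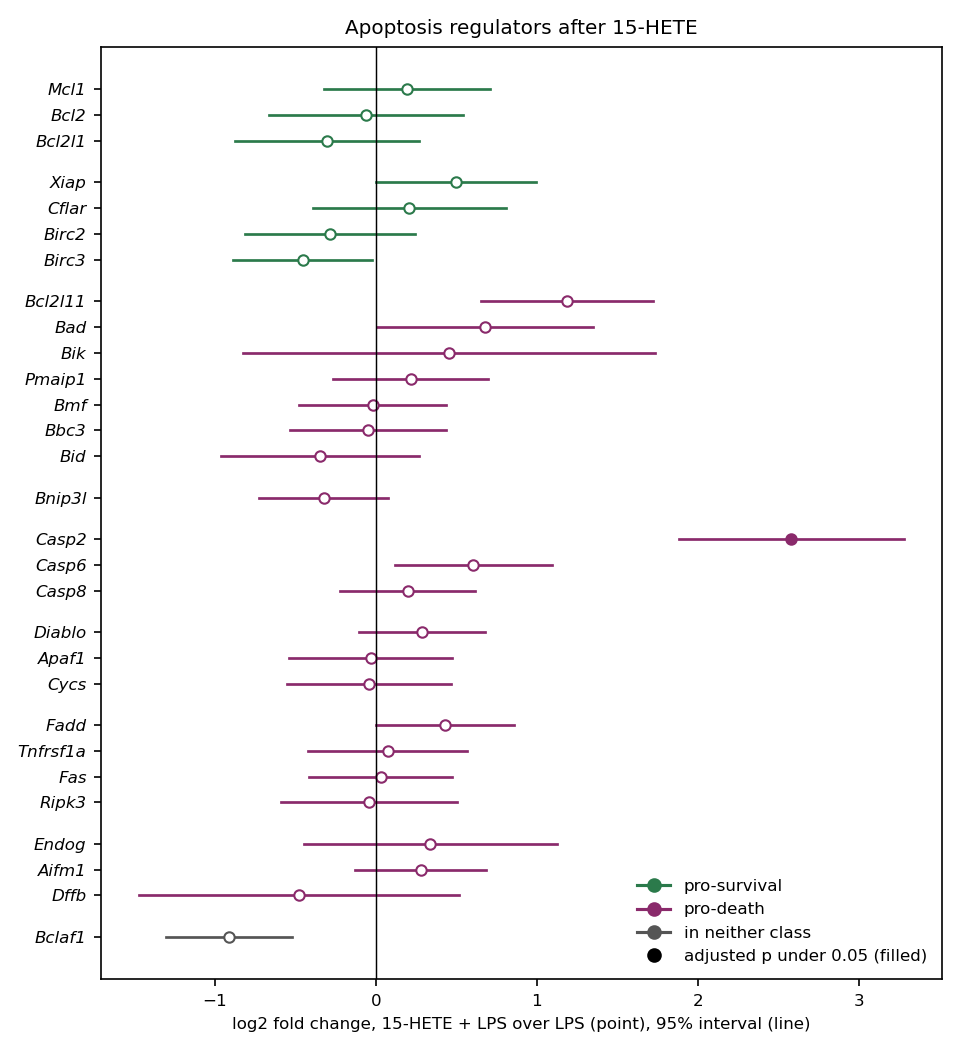
Log2 fold change of the 29 measured genes (x axis, 15-HETE + LPS over LPS), in rows grouped by role. Points are fitted values, lines are 95% intervals from limma, green marks pro-survival, purple pro-death and grey Bclaf1, and the 1 filled point, Casp2 at 2.58, had an adjusted p under 0.05.

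The promoters of Casp2, Bclaf1 and Bcl2l11, the genes with the lowest p, and of Birc3, an NF-κB target, are printed to show the DNA at the start of these transcripts. Each is the stretch from 250 bases before to 50 bases after the start site listed by RefSeq on build GRCm38.p6, written 5′ to 3′ along the gene. Capitals mark matches, on either strand, to a FOXO motif (GTAAACA), an NF-κB motif of 10 bases (GGG, any 2 bases, TT, any base, CC), an EGR1 motif (GCGGGGGCG), a GC box (GGGCGG) and a CCAAT box (CCAAT). The EGR1 motif and the GC box can share bases.
Casp2, chr6:42264735-42265034, plus strand: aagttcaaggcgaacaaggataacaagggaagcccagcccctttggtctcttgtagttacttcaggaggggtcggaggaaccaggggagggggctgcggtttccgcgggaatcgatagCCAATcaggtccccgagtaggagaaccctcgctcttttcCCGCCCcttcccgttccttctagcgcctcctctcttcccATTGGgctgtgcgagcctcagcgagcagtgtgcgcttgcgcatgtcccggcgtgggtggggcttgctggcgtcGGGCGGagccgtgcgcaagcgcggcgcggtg
Bcl2l11, chr2:128125788-128126087, plus strand: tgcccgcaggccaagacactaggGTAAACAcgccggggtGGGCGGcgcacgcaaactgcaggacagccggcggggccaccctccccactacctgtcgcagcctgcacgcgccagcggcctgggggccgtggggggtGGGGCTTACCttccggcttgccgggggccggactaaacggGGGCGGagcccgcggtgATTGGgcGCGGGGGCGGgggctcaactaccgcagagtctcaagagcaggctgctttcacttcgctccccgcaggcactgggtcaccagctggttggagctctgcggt
Bclaf1, chr10:20312219-20312518, plus strand: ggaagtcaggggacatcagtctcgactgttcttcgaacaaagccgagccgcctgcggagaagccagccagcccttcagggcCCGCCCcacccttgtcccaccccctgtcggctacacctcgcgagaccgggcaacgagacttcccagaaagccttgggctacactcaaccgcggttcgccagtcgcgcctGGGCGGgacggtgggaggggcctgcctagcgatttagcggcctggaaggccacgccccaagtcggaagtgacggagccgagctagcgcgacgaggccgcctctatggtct
Birc3, chr9:7873121-7873420, minus strand: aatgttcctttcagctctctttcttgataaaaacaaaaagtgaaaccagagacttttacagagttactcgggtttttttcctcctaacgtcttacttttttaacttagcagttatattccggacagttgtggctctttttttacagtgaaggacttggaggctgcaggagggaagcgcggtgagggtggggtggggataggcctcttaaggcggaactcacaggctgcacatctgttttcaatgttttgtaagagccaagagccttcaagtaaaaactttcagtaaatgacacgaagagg
The Bcl2l11 window, the upstream one listed of a pair, held a FOXO match 227 bases before the start, an NF-κB match 114 bases before it and an EGR1 match 50 bases before it, beside 3 GC boxes and 1 CCAAT box. The other Bcl2l11 window, chr2:128127325-128127624, held 3 GC boxes and 2 CCAAT boxes and none of the FOXO, NF-κB and EGR1 motifs. Casp2 held 2 GC boxes and 2 CCAAT boxes, Bclaf1 held 2 GC boxes, and Birc3 held none of the 5 motifs. Among the 32851 promoter windows of this length that were searched, 3.65% held the FOXO motif, 4.79% the NF-κB motif, 2.91% the EGR1 motif, 35.7% a GC box and 37.4% a CCAAT box. For the 26 measured genes of the list with a window, 37 windows in all, the shares were 5.41%, 10.8%, 5.41%, 64.9% and 35.1%. The search left out all windows of a single chromosome, so any gene on it counts here as having no window. A match is a description of the letters and not of a bound factor.

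Some facts of the samples bear on all values. The authors' quantile normalization gives every array the same distribution, with a median intensity of 837, so levels are relative to the other probes. Of 10 macrophage markers 8 had a probe and all 8 lay above the array median, with a summed intensity of 3669956 to 3806236 after 15-HETE and 2545211 to 3303776 with LPS alone. The summed intensity of 6 fibroblast markers was 13121 to 15431 after 15-HETE and 22049 to 27746 with LPS alone, that of 3 neuronal markers 4464 to 6857 after 15-HETE and 12629 to 13887 with LPS alone, and that of 5 epithelial markers 2531 to 4641 after 15-HETE and 4943 to 6011 with LPS alone. The sums overlapped between the groups for 4 T cell markers (1927 to 2884 after 15-HETE, 2399 to 3146 with LPS alone), 3 B cell markers (1709 to 5200, and 2185 to 2582 with LPS alone) and 4 granulocyte markers, all above the array median (143041 to 219137, and 61393 to 185715 with LPS alone). The part of these shifts in the results was not tested. Within the lists, single genes set the sums. Lyz2 made up most of the macrophage sum (log2 ratio 0.295). Of the 8 macrophage markers 7 were positive and 1 negative, from 0.51 for Fcgr1 to 0.02 for Ptprc and Itgam and -0.08 for Mertk. Syt1 made up most of the neuronal sum (log2 ratio -1.42), while Snap25 was at 0.81 and Map2 at 0.29. In the fibroblast list Dcn was at -1.30, and 1 gene of the 6 was positive and 5 were negative. In the epithelial list Krt8 was at -1.05, while Cdh1 was at 0.61 with no overlap. S100a8 held most of the granulocyte sum. S100a8 (log2 ratio 0.47) and S100a9 (0.49) overlapped between the groups, while Mpo (-1.38) and Elane (-1.08) lay wholly below the LPS samples. All samples are of this single cell line, so the sums are transcript levels and not counts of cells of these kinds. Whether a transcript differed in all cells or in some of them cannot be told from bulk RNA. The sources used here do not say which arrays were hybridized together, so array set and treatment cannot be told apart. LPS replicate 1 stood apart from LPS replicates 2 and 3. It was the farthest of the 3 LPS samples for 21 of the 29 genes (72.4%), against 53.5% of genes at their brightest probe. Its log2 values lay above the LPS mean for 22 and below it for 7 of the 29. The SD of log2 values within a group had a median of 0.085 over the 29 genes after 15-HETE and of 0.257 with LPS alone, where the brightest probes of all genes had 0.230 and 0.292. The 15-HETE samples thus lay close together for these genes, while the LPS samples were spread mainly by replicate 1. Values without that replicate are given for many of the genes whose log2 fold change it moved or turned.

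**Figure D2:**
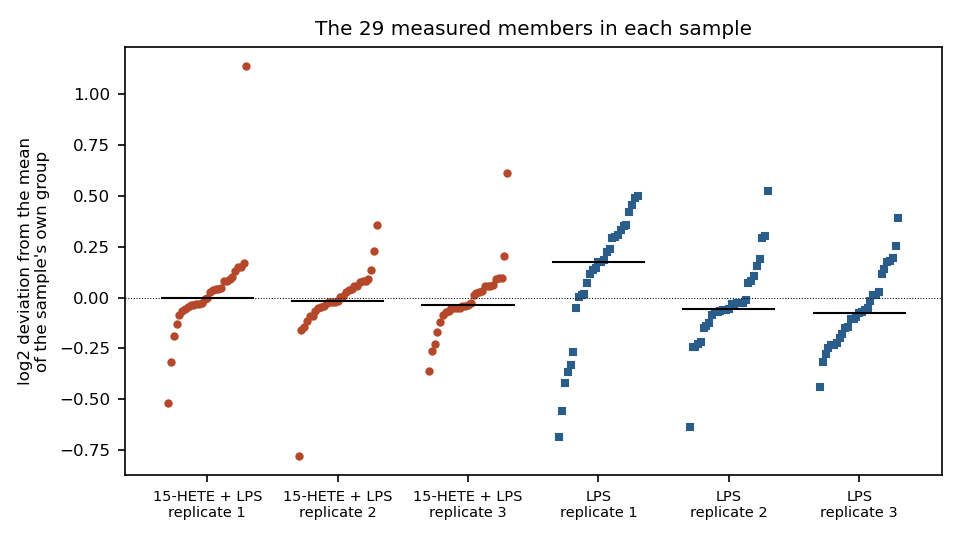
Log2 deviation of each of the 29 genes from the mean of the sample's own group (y axis) in the 6 samples (x axis), with the median as a line. The median deviation was 0.174 in LPS replicate 1 and lay between -0.077 and -0.003 in the other 5 samples.

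Of the BCL-2 guardians, which bind and restrain the pore formers, 3 of 4 were measured and 0 were called, with 0 at an unadjusted p under 0.05. Bcl2 had intensities of 3715, 5942 and 4513 after 15-HETE and of 5698, 4142 and 4766 with LPS alone. The groups overlapped, with a log2 ratio of -0.06 (standard error, SE, 0.25, 95% interval -0.66 to 0.54, adjusted p = 0.918 from limma), and 0.06 without LPS replicate 1. Bcl2l1, which encodes BCL-XL, had 218857, 241715 and 236703 after 15-HETE and 382908, 242365 and 253154 with LPS alone. The 15-HETE samples all lay below the LPS samples, but by little, and LPS replicate 1 held most of the distance. The log2 ratio was -0.30 (SE 0.24, adjusted p = 0.520), and -0.09 without LPS replicate 1. Mcl1, a guardian of short half-life, had 331144, 329321 and 308203 after 15-HETE and 356009, 240406 and 262542 with LPS alone. LPS replicate 1 was above every 15-HETE sample and LPS replicates 2 and 3 were below every one. Its log2 ratio was 0.19 (SE 0.21, adjusted p = 0.654), and 0.36 without LPS replicate 1.

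The 4 inhibitors of caspases and of their activation had 2 positive and 2 negative log2 ratios. Birc3, which encodes cIAP2, a ubiquitin ligase of TNF receptor signalling and an NF-κB target, had 56411, 52947 and 55339 after 15-HETE and 84842, 73683 and 67907 with LPS alone. Every 15-HETE sample was lower, with a log2 ratio of -0.45 (SE 0.18, 95% interval -0.88 to -0.02, unadjusted p = 0.0419, adjusted p = 0.235 from limma). Under the intensity trend the adjusted p was 0.0469, but 5 of the 6 such fits without 1 sample lost the call (0.172 at most), as did a robust prior beside the trend (0.0691). Birc2, which encodes the related cIAP1, had 7154, 6949 and 7772 after 15-HETE and 11326, 8134 and 7595 with LPS alone. These groups overlapped, the log2 ratio was -0.29 (SE 0.22, adjusted p = 0.512), and it was -0.11 without LPS replicate 1.

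Xiap, which blocks caspases directly, had 6566, 6209 and 4864 after 15-HETE and 4691, 3882 and 3859 with LPS alone. All 15-HETE samples were higher, although 15-HETE replicate 3 and LPS replicate 1 lay close, with a log2 ratio of 0.50 (SE 0.21, unadjusted p = 0.0499, adjusted p = 0.255 from limma). Cflar, which encodes FLIP, the decoy of caspase-8, had 69909, 66770 and 66414 after 15-HETE and 80344, 53242 and 47000 with LPS alone. LPS replicate 1 lay above all 15-HETE samples and the other LPS samples below them. The log2 ratio was 0.21 (SE 0.25, adjusted p = 0.683), and 0.44 without LPS replicate 1. Among the 7 measured pro-survival genes, guardians and inhibitors together, 0 were thus called.

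Of the BH3-only genes, all 7 were measured, and 2 were higher at an unadjusted p under 0.05 and 0 lower. Bcl2l11 had intensities of 66634, 72082 and 65654 after 15-HETE and of 23186, 34193 and 33815 with LPS alone. The lowest 15-HETE sample was far above the highest LPS sample. BIM binds all guardians and can activate BAX and BAK, and in lymphocytes and myeloid cells of mice it limits survival. The log2 ratio was 1.19 (SE 0.22, 95% interval 0.65 to 1.72, unadjusted p = 0.00149, adjusted p = 0.0676 from limma), and 1.00 without LPS replicate 1. Under the intensity trend the adjusted p was 0.00298, and it was under 0.05 in all 6 fits of this kind that left out 1 sample (0.0253 at most).

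Bad, whose product is held inactive by phosphorylation, had 13786, 13908 and 14752 after 15-HETE and 6006, 10906 and 10548 with LPS alone. Each 15-HETE sample was higher, and LPS replicate 1 was the lowest. The log2 ratio was 0.68 (SE 0.28, unadjusted p = 0.0478, adjusted p = 0.250 from limma), and 0.40 without LPS replicate 1. Bid, whose product is cut by caspase-8 and so links the death receptors to mitochondria, had 17807, 17604 and 18112 after 15-HETE and 31807, 19179 and 19122 with LPS alone. The 15-HETE samples were lower, but LPS replicates 2 and 3 lay just above them. Its log2 ratio was -0.35 (SE 0.25, adjusted p = 0.494), and -0.10 without LPS replicate 1. The lower mean thus rested mostly on 1 LPS sample.

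The other 4 BH3-only genes overlapped between the groups. Bbc3, which encodes the p53 target PUMA, had 125453, 113385 and 113072 after 15-HETE and 136461, 130129 and 99729 with LPS alone, a log2 ratio of -0.05 with a 95% interval of -0.53 to 0.44, which became 0.04 without LPS replicate 1. Pmaip1, which encodes NOXA, a partner of MCL-1 and likewise a p53 target, had 56341, 49725 and 46634 after 15-HETE and 50930, 42916 and 38109 with LPS alone (0.22, 95% interval -0.26 to 0.70, and 0.33 without LPS replicate 1). Bmf (-0.02) and Bik (0.45, and 0.63 without LPS replicate 1) were dim, below the array median of 837 in all samples but 1. Bik was 941 in 15-HETE replicate 1 and between 230 and 400 in the 3 LPS samples. Both 95% intervals held 0. Bnip3l, which encodes NIX, a receptor for mitophagy with a BH3-like stretch, had 266190, 244186 and 243521 after 15-HETE and 330474, 312165 and 300939 with LPS alone at its brightest probe. These groups did not overlap, and the log2 ratio of -0.32 did not pass (SE 0.17, unadjusted p = 0.0971, adjusted p = 0.343).

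**Figure D3:**
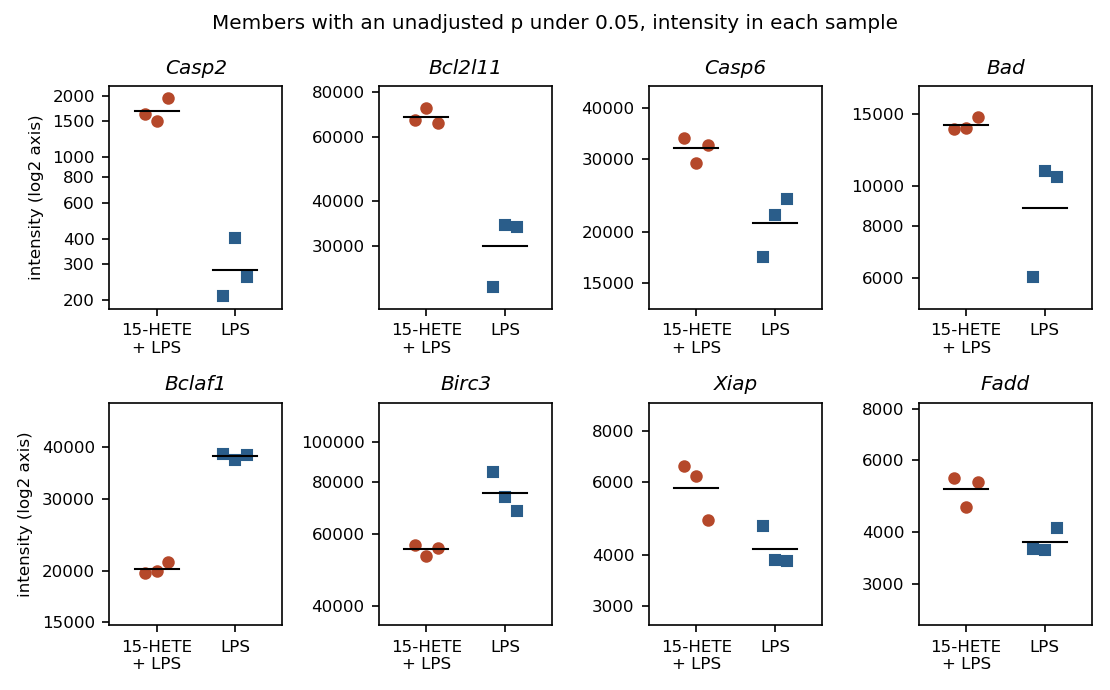
Intensity (y axis, log2 scale) of the 8 genes with an unadjusted p under 0.05 in the 3 samples of 15-HETE + LPS (circles) and the 3 of LPS (squares), in replicate order, with geometric means as lines. The groups do not overlap in any of the 8, which choosing genes by p on these same values favours. LPS replicate 1 lies farthest from the 15-HETE samples in all of the 8 but Xiap and Fadd.

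Of the caspases, 3 of 4 were measured. Casp2, an initiator caspase that is activated by the PIDD1 and CRADD platform and linked to DNA damage and cell cycle control, had intensities of 1626, 1502 and 1937 after 15-HETE and of 210, 404 and 261 with LPS alone. The LPS samples lay below the array median of 837 and the 15-HETE samples above it, and no sample of either group came near the other. Its transcript rose, by 2.58 on the log2 scale (SE 0.29, 95% interval 1.88 to 3.28, adjusted p = 0.0348 from limma). With an offset of 50 added before the log the value was 2.38. Of the 16506 probes with a mean below that median 9 were called higher, 0.0545%. The call was lost by the methods' t-test over all probes (adjusted p = 0.164), by the replicate number as a block (adjusted p = 0.207), and in each fit without 1 sample, where limma called 0 probes of the array. With the intensity trend it stayed under 0.05 in all 6 such fits (0.0269 at most), and the log2 ratio lay between 2.37 (LPS replicate 1 left out) and 2.84 (LPS replicate 2 left out).

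Casp6, an executioner caspase that cuts lamin A, had 33815, 29457 and 32574 after 15-HETE and 17390, 22015 and 24016 with LPS alone. Every 15-HETE sample was higher, with a log2 ratio of 0.61 (SE 0.20, 95% interval 0.12 to 1.09, unadjusted p = 0.0221, adjusted p = 0.176 from limma). The log2 ratio was 0.47 without LPS replicate 1. Under the intensity trend the adjusted p was 0.0307, but 4 of the 6 such fits without 1 sample lost it. Casp8, the initiator of the death receptor route, had 35036, 35873 and 32493 after 15-HETE and 33257, 28577 and 28462 with LPS alone. The groups overlapped, with a log2 ratio of 0.20 (SE 0.17, 95% interval -0.22 to 0.62, adjusted p = 0.571).

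The genes of the apoptosome and of the proteins set free with it differed little. Apaf1, the scaffold of the apoptosome, had 12586, 14481 and 12534 after 15-HETE and 16488, 12933 and 11439 with LPS alone, a log2 ratio of -0.03 (95% interval -0.54 to 0.48) that became 0.12 without LPS replicate 1. Cycs, which encodes cytochrome c, had 324682, 350992 and 319836 after 15-HETE and 271102, 379137 and 385777 with LPS alone. LPS replicate 1 was the lowest of the 6 and the other LPS samples were the highest, and the log2 ratio was -0.04 (SE 0.21, adjusted p = 0.934), or -0.21 without LPS replicate 1. Diablo, which encodes SMAC, an antagonist of the IAP proteins, had 11581, 12054 and 12510 after 15-HETE and 9945, 9671 and 9961 with LPS alone. The 15-HETE samples were all higher, by a log2 ratio of 0.29 that did not pass (SE 0.16, unadjusted p = 0.123, adjusted p = 0.383 from limma).

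On the death receptor side, 4 of 8 genes were measured and 0 were called. At an unadjusted p under 0.05, 1 was higher and 0 lower, against 10.7% and 10.6% of genes at their brightest probe. Fadd, the adaptor that brings caspase-8 to FAS, had 5429, 4612 and 5309 after 15-HETE and 3650, 3626 and 4101 with LPS alone. Each 15-HETE sample was higher, with a log2 ratio of 0.43 (SE 0.18, unadjusted p = 0.0487, adjusted p = 0.252 from limma). The receptors themselves overlapped between the groups. Fas had 8727, 8150 and 7081 after 15-HETE and 8565, 7458 and 7410 with LPS alone, a log2 ratio of 0.03 (95% interval -0.41 to 0.47). Tnfrsf1a, the main TNF receptor with a death domain, had 143039, 134851 and 153818 after 15-HETE and 167625, 123069 and 123177 with LPS alone, where LPS replicate 1 was again the highest of all 6 (0.07, 95% interval -0.42 to 0.57, and 0.22 without that sample). Ripk3, the kinase of necroptosis, had -0.04 (95% interval -0.59 to 0.51, and 0.11 without LPS replicate 1), with 25935, 24634 and 19915 after 15-HETE and 29741, 22827 and 20389 with LPS alone. For the genes of DNA breakdown, Aifm1, a mitochondrial flavoprotein that can enter the nucleus, had 84842, 83000 and 79650 after 15-HETE and 73720, 64898 and 65517 with LPS alone. All 15-HETE samples were higher, with a log2 ratio of 0.28 (SE 0.17, adjusted p = 0.411). The nuclease genes overlapped between the groups and varied more within them. Endog, which encodes a mitochondrial nuclease, had 5136, 5795 and 5987 after 15-HETE and 2764, 5462 and 5846 with LPS alone (0.34, 95% interval -0.45 to 1.12). This value rested on LPS replicate 1, without which it was -0.01. Dffb, which encodes the caspase-activated DNase, had 318, 427 and 695 after 15-HETE and 893, 406 and 698 with LPS alone (-0.48, 95% interval -1.47 to 0.52, and -0.23 without LPS replicate 1).

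Bclaf1, which encodes a nuclear protein of RNA processing and transcription found through its binding to BCL-2 family proteins, was put in neither class. It had 19728, 19983 and 21081 after 15-HETE and 38525, 37250 and 38328 with LPS alone. Replicates were close in both groups, LPS replicate 1 included, and the groups lay far apart. The log2 ratio was -0.91 (SE 0.16, 95% interval -1.30 to -0.52, unadjusted p = 0.00119, adjusted p = 0.0636 from limma). Under the intensity trend the adjusted p was 0.00170, and at most 0.0198 without any 1 sample. By the t-test that the methods name, with adjustment over the 5676 probes past their fold rule, Bclaf1 was the only gene of the list called (adjusted p = 0.0184), with Casp2 at 0.0574 and Bcl2l11 at 0.0902. The study selected Bclaf1 on these samples, so this count is not independent evidence.

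Set side by side, the median log2 ratio was 0.198 for the 21 pro-death genes and -0.058 for the 7 pro-survival genes, where the brightest probes of all genes had 0.021 and all probes 0.007. The pro-survival median was the value of Bcl2 at its brightest probe, a gene given no direction below. With the mean over the probes of a gene, the pro-survival median was 0.063, beside 0.216 for pro-death genes. Without 15-HETE replicate 1 the order turned, with 0.078 for pro-death and 0.101 for pro-survival genes, and without LPS replicate 1 the values were 0.223 and 0.061. The pro-death median was 0.118 without LPS replicate 3, and the pro-survival median was -0.238 without 15-HETE replicate 2 and -0.169 without LPS replicate 2. Of the pro-death genes 13 were positive and 8 negative, 5 were higher and 0 lower at an unadjusted p under 0.05, and 7 lay wholly above and 2 wholly below the LPS samples. Of the pro-survival genes 3 were positive and 4 negative, 1 was higher and 1 lower at that threshold, and 1 lay wholly above and 2 wholly below. Of genes at their brightest probe, 10.7% were higher and 10.6% lower at that threshold, and 17.5% lay wholly above and 17.7% wholly below. The share without overlap, either way, was 42.9% in both classes, against 35.3% of genes. All 7 pro-survival genes and 17 of the 21 pro-death genes had a log2 ratio within 0.5 of 0. The mean deviation of the pro-death genes from their LPS means was 0.330, 0.250 and 0.283 in the 15-HETE samples, against 0.021, 0.010 and -0.031 in the LPS samples. For the pro-survival genes it was -0.048, 0.028 and -0.066 in the 15-HETE samples, against 0.309, -0.153 and -0.155 in the LPS samples. The 15-HETE samples thus lay above LPS replicates 2 and 3 and below LPS replicate 1 for the pro-survival mean, and above all 3 for the pro-death mean, of which Casp2 and Bcl2l11 are part. Neither order held for the median deviation. For the pro-death genes it was 0.206, 0.187 and 0.114 in the 15-HETE samples, against 0.118, -0.028 and -0.063 in the LPS samples. For the pro-survival genes it was -0.311, 0.189 and -0.097 in the 15-HETE samples, against 0.335, -0.138 and -0.146 in the LPS samples. No test was run on these lists.

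**Figure D4:**
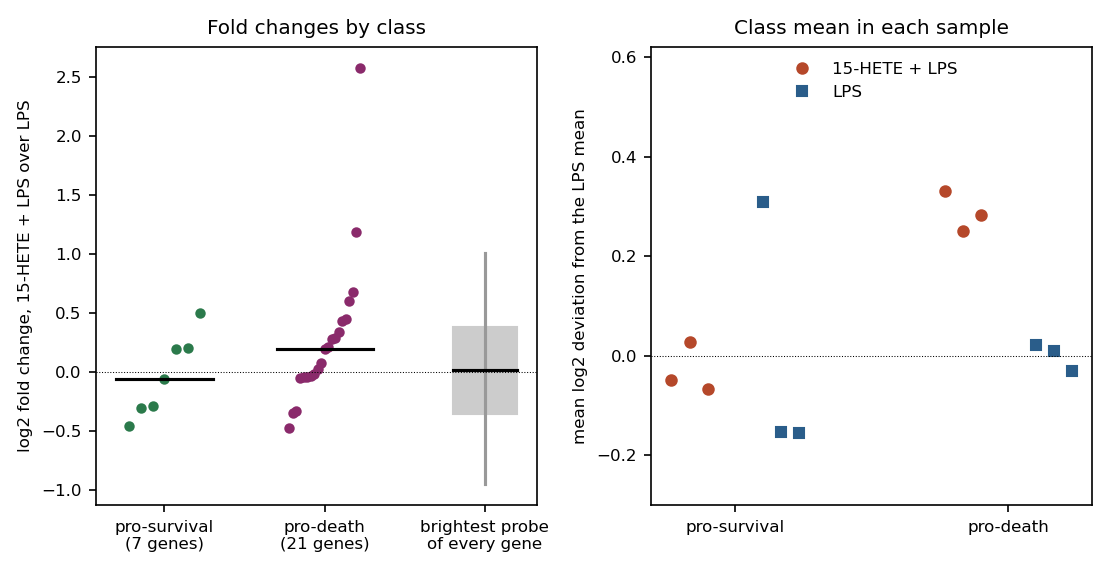
Left, log2 fold changes (15-HETE + LPS over LPS) of the 7 pro-survival and 21 pro-death genes with their medians of -0.058 and 0.198, beside the brightest probes of all genes (line 5% to 95%, box 25% to 75%, median 0.021). Right, the mean log2 deviation of each class from its LPS mean in each sample of 15-HETE + LPS (circles) and LPS (squares), where the LPS square at 0.309 is LPS replicate 1.

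Bcl2, Cycs, Cflar and Bnip3l had a second, dimmer probe, and for all 4 it gave the opposite sign. The second Bcl2 probe had 2232, 3266 and 4650 after 15-HETE and 2820, 2255 and 1874 with LPS alone (log2 ratio 0.50, 95% interval -0.28 to 1.29). The second Cycs probe had 259121, 306522 and 289353 after 15-HETE and 138543, 241715 and 254264 with LPS alone (0.48, 95% interval -0.21 to 1.16). The second Bnip3l probe had 12087, 9493 and 9865 after 15-HETE and 9100, 7221 and 7226 with LPS alone, so that its 15-HETE samples lay above the LPS samples where those of the brightest probe lay below (0.42, 95% interval -0.07 to 0.91). The second Cflar probe had 18328, 19429 and 18534 after 15-HETE and 24202, 17638 and 18321 with LPS alone (-0.08). None of the 8 probes passed the test, and every interval held 0, so no direction is given for these 4 genes.

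**Figure D5:**
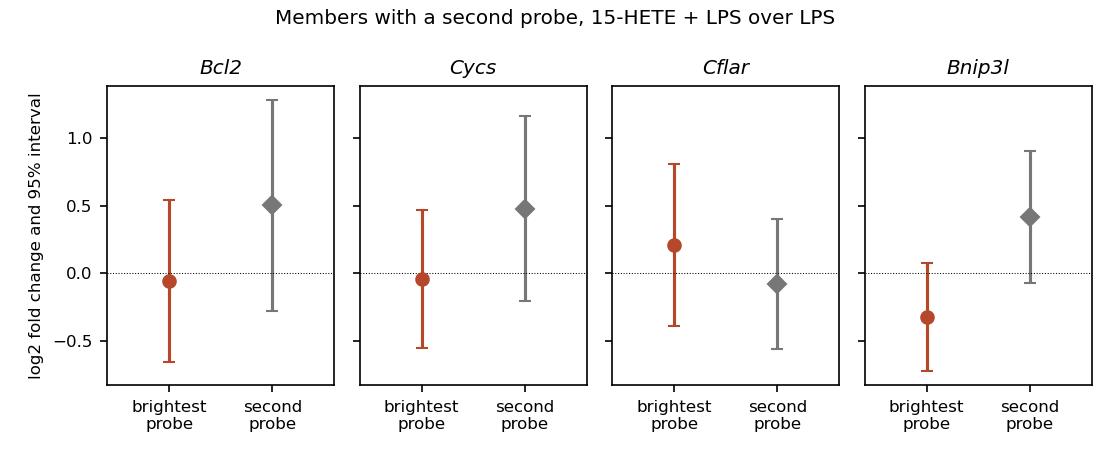
Log2 fold change (y axis, 15-HETE + LPS over LPS) with 95% intervals from limma at the brightest and the second probe of Bcl2, Cycs, Cflar and Bnip3l. The signs differ within each pair, and all 8 intervals hold 0.

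A list of 62 other genes of the pathway, among them adaptors, substrates and regulators of caspases, had 48 with a probe. Of these 0 were called higher and 1 was called lower, with 2 and 6 at an unadjusted p under 0.05 (10.7% and 10.6% of genes at their brightest probe) and 1 and 4 called under the intensity trend (5.85% and 5.33%), and their log2 ratios had a median of -0.022. Acin1, which encodes acinus, a nuclear protein of splicing that caspases cut and that takes part in chromatin condensation, was the gene called. It had 10242, 10509 and 10693 after 15-HETE and 42617, 30942 and 33132 with LPS alone, and fell by 1.75 on the log2 scale (SE 0.20, adjusted p = 0.0348 from limma). This call too was lost with any 1 sample left out, with the replicate block and by the methods' t-test over all probes, each of which called 0 probes of the array. The translation inhibitor Pdcd4 had 1.16 (adjusted p = 0.0629), the cytokine Tnf -0.77 (adjusted p = 0.0870) and the protease Capn2 -0.77 (adjusted p = 0.145). For these 3, named for their low p, the groups did not overlap. The inflammatory caspases Casp1 (-0.03) and Casp4 (-0.10) overlapped between the groups.

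Of 22 p53 target genes 19 had a probe and 0 were called, with 4 higher and 2 lower at an unadjusted p under 0.05 and a median log2 ratio of 0.245. Under the intensity trend 3 were called higher and 2 lower. The shares of genes at their brightest probe were 10.7% and 10.6% at the unadjusted threshold, and 5.85% and 5.33% under the trend. Lowest in p were the lysosomal protein Dram1 (log2 ratio -1.22, adjusted p = 0.0636), the AKT inhibitor Phlda3 (0.98, adjusted p = 0.0864), the membrane protein Perp (1.18, adjusted p = 0.123) and Trp53inp1 (0.69, adjusted p = 0.139). Of 13 NF-κB survival targets 9 had a probe and 0 were called, with 0 higher and 1 lower at an unadjusted p under 0.05 and a median log2 ratio of -0.312. Under the intensity trend 0 were called higher and 1 lower, Nfkb2. Nfkb2, an NF-κB subunit, had -0.99 (adjusted p = 0.123, and 0.0175 under the trend), and the mitochondrial dismutase Sod2 had -0.41 (adjusted p = 0.255), the deubiquitinase Tnfaip3 0.63 (adjusted p = 0.266) and the adaptor Traf2 -0.39 (adjusted p = 0.392). For these 4, named for their low p, the groups did not overlap. The counts of p53 and NF-κB targets leave out the members themselves, such as Bbc3, Pmaip1, Fas and Birc3.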

How the data were processed

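Total RNA of RAW 264.7 cells treated with 15-HETE and LPS or with LPS alone was hybridized to mouse arrays, 3 per group. The deposited intensities had been imaged, extracted with the analyzer's software and quantile normalized by the authors. The table had 0 missing values, so their later exclusion of probes by S/N and flags had left no trace in it. How background was corrected is not given in the sources used here. The small number of arrays limits the precision.

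The log2 of each intensity entered limma 3.58.1 under R 4.3.3 (lmFit, eBayes, default prior), and Benjamini-Hochberg adjustment covered all 33012 probes. The platform annotation gave 1 symbol for 14411 of them. P-values measure the spread between the deposited samples. The list and its classes, the other lists and the tests were chosen with earlier results of these data known. Described with values in every sample were at least the 14 measured genes of the list with the lowest p, Bclaf1, Bcl2, Bcl2l1, Mcl1 and Casp8, and genes whose probes differed in sign, of each further list the 4 genes with the lowest p were named. Bax and Bak1, also named by that rule, were not analysed here. Pro-death and pro-survival classes followed textbook roles. Promoter sequences are from RefSeq, GRCm38.p6, and no coordinates of probes were used. Scripts were tested on simulated data. Alternatives were other priors, normalizations, an offset of 50, a filter on dim probes and other probes. The methods' t-test without their S/N and flag filters, a block for the replicate number, and fits without 1 sample were also run.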

Additional observations from a re-analysis of the deposited data

How the results depend on the processing

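Median scaling changed no value, as the arrays already share 1 distribution. Cyclic loess, an offset of 50 and the mean over the probes of a gene left 1 gene higher and 0 lower. The intensity trend gave 3 higher and 2 lower, where 1279 and 1638 of the 33012 probes were called. With a robust prior added it gave 3 higher and 1 lower, where 1207 and 1562 probes were called. A robust prior alone left 1 higher and 0 lower, where 100 and 62 probes were called. At an unadjusted p under 0.05 it left 3 higher and 2 lower. Among probes above the median intensity, which leaves out Casp2, 1 gene of the list was higher (Bcl2l11) and 1 lower (Bclaf1). Across the array, 1207 probes were called higher and 1589 lower of the 16506 that this filter kept. The methods' t-test called 0 higher over all probes, of which it called 0. After the fold rule it called 0 genes of the list higher and 1 lower, beside 50 probes higher and 38 lower on the array. With the second probes the pro-death median was 0.280 and the pro-survival median -0.082. With the mean over probes they were 0.216 and 0.063. The mean over probes turned the log2 fold change of Bnip3l to 0.047, of Bcl2 to 0.222 and of Cycs to 0.218, and the second probes gave 0.418, 0.503 and 0.477, and -0.082 for Cflar. The cause of these differences was not tested.

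The replicate number as a block left 0 genes higher, and 2 higher and 1 lower at an unadjusted p under 0.05, where limma called 0 probes of the array. The labels give the samples a replicate number and do not say whether same-numbered samples were prepared together. Deviations of same-numbered samples correlated at -0.024, 0.003 and 0.024, which cannot decide this.

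Without any 1 sample 0 genes were higher and 0 lower, as on the whole array, with 2 to 8 higher and 1 to 2 lower at an unadjusted p under 0.05 (8.10% to 13.3% and 8.06% to 10.7% of genes at their brightest probe). With 3 against 2 samples 13 to 19 did not overlap (41.8% to 48.4% of genes). The 19, 65.5%, came without LPS replicate 1, where 48.4% of genes did not overlap. The median ran from 0.078 to 0.240 for pro-death and from -0.238 to 0.101 for pro-survival genes, Bcl2 from -0.238 to 0.101 and Cycs from -0.206 to 0.048. With the intensity trend 2 to 10 were higher and 1 to 3 lower (2.38% to 12.6% and 2.14% to 9.17% of genes), and 4 to 13 and 2 to 4 at an unadjusted p under 0.05 (11.6% to 18.2% and 11.4% to 15.0%). The 10 and 3 came without LPS replicate 1, where 7.86% and 7.69% of all probes were called.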

Other observations

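Without LPS replicate 1, the sample that stood apart for these genes, limma with the intensity trend called 10 of the 29 genes higher, against 12.6% of genes at their brightest probe, and 3 lower, against 9.17%. The 10 were Mcl1, Bad, Bcl2l11, Pmaip1, Casp2, Casp6, Casp8, Xiap, Cflar and Aifm1, and the 3 were Bnip3l, Birc3 and Bclaf1. These are values at the brightest probe, and over all 6 samples the second probes of Cflar (-0.082) and Bnip3l (0.418) had the opposite sign, so neither gene is given a direction. Both classes were among the other genes called higher in this fit. Log2 ratios were 0.36 for Mcl1 (adjusted p = 0.00398) and 0.59 for Xiap (adjusted p = 0.0417), beside 0.40 for Bad (adjusted p = 0.0156) and 0.27 for Casp8 (adjusted p = 0.0335). The sample was picked because it stood apart on these same values, which favours low p-values. Mcl1, Xiap, Bad, Casp8 and Aifm1 were each called in only 1 of the 6 trend fits without 1 sample. The part of that replicate in the spread was not tested further.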
